A study of Mus musculus with 8 samples.

Results

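The genes described here are 34 genes whose known expression is in germ cells, testis, oocytes or the early embryo, a class that includes known or likely targets of the histone methyltransferase G9a and of DNA methylation. The rule takes them by name and uses no measured value, although the list was drawn up with earlier results of these data known. They were looked up by the gene symbol that the array annotation gives each probe set. Of the 34 genes, 32 had a probe set of their own, among 17097 genes in all. Hist1h1t, the testis-specific linker histone gene, was found under its current symbol H1f6, while the expression of Fkbp6 and Mageb4 was not analysed here and only their promoters were. The comparison asks which of these genes differ between bulge cells with and without G9a, and how many lie near background in both.

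The arrays were Affymetrix mouse expression arrays of bulge cells, the stem cell compartment of the hair follicle, from the epidermis of mice treated with the mutagen DMBA and the tumour promoter TPA. The 4 arrays labelled G9a cKO came from animals with a conditional knockout of G9a, and the 4 arrays labelled G9a WT came from animals with G9a. Both groups received the same treatment of shaved back skin, 200 µl of DMBA at 0.25 mg/ml and of TPA at 0.02 mg/ml in acetone weekly over 6 weeks in mice that were 8 weeks old, and the labels give 15 weeks as the age at sampling. The promoter that drives the deletion, the deleted part of the gene and any pooling of animals are not stated in the labels. Each title names 1 animal, so the spread behind each p-value was treated as that between animals.

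G9a, with its partner GLP, methylates lysine 9 of histone H3, a mark of silent euchromatin. In somatic cells many germline genes are kept silent by DNA methylation of CpG-rich promoters, by H3K9 methylation and by a repressor complex that holds E2F6 and the MGA-MAX pair. In mouse embryonic stem cells that lack G9a, several testis genes, the Magea genes among them, are known to lose silencing.

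The targeted gene differed between the genotypes by 1 of its 2 probe sets. Ehmt2, which encodes G9a, read 6.44, 5.54, 5.80 and 5.64 in the cKO arrays and 9.29, 8.89, 8.93 and 9.15 in the WT arrays by probe set 1460692_PM_at (log2 change -3.21, SE 0.18, and 6.64e-05 as the limma p adjusted across the whole array), while probe set 1426888_PM_at read 8.41 in both. The 10 bulge and basal keratinocyte markers fixed for the check, among them Cd34, Krt15 and Lgr5, read between 8.43 and 12.6 on every array, and none passed the threshold. For 2 of them the groups did not overlap, where 8.24% of all genes had no overlap. Nfatc1, a transcription factor of bulge stem cells, was lower in all cKO arrays (log2 change -0.35, SE 0.08, limma adjusted p = 0.0566), and Krt15 was higher (0.10, SE 0.03, limma adjusted p = 0.202). Their part in the results was not tested. Of 5 measured defining genes of germ cells outside the list (Zp3, Dmc1, Prm1, Tnp1 and Pou5f1) none passed and 4 lay near background. Of 28 markers of melanocytes, fibroblasts, macrophages and dendritic cells, T cells and endothelium, the collagen gene Col1a1 fell (log2 change -0.91, limma adjusted p = 0.00100) and Thy1 rose (0.57, limma adjusted p = 0.0251), where 2.76% of all genes were called. The other fibroblast and T cell markers did not pass. Their log2 changes ran from -0.04 (Pdgfra) to 0.11 (Col1a2) and from -0.06 (Cd2) to 0.03 (Cd3g). In each of these 2 lists 4 markers lay near background. The mean level of the 6 fibroblast markers, Col1a1 included, was 4.75 to 4.89 in cKO and lay above 4.91 on each WT array. That of the 5 T cell markers, Thy1 included, was 5.13 to 5.31 in cKO and 5.12 to 5.16 in WT. The part of these markers in the results below was not tested. In bulk cells, fewer cells of a type and less RNA per cell cannot be told apart. The Y-linked genes Eif2s3y (8.93 to 9.32), Kdm5d (8.04 to 8.42) and Uty (6.52 to 6.72) were read on all 8 arrays, and Xist lay between 5.03 and 5.28, so the X-linked members were compared between animals with the same pattern of sex-linked genes.

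Most of the germline genes stayed near background in both genotypes. The background level was set at 5.50 on the log2 scale, the 95th percentile of 83 probe sets for olfactory and vomeronasal receptors. These probe sets were assumed to have little or no target in bulge cells, and their median was 3.95. By the level of 5.50, 22 of the 32 measured members (68.8%) were near background in both genotypes, against 37.3% of all genes. The 10 others lay above it in both genotypes: the piRNA genes Piwil2, Tdrd1 and Mov10l1, the chromatin genes Brdt, H1f6 and Dnmt3l, the X-linked homeobox genes Rhox6 and Rhox9, and the testis genes Tuba3a and Tex101. No member was near background in one genotype and above it in the other. Nearest to the level were Wfdc15a, at 5.48 in cKO and 5.45 in WT just below it, and Mov10l1, at 5.53 and 5.54 just above it. With the level at the 90th percentile of the same receptor probe sets (4.87), 17 members were near background, and with the 40th percentile of all probe sets (5.23), 20. A value above the level may still be unspecific signal of that probe set.

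**Figure D1:**
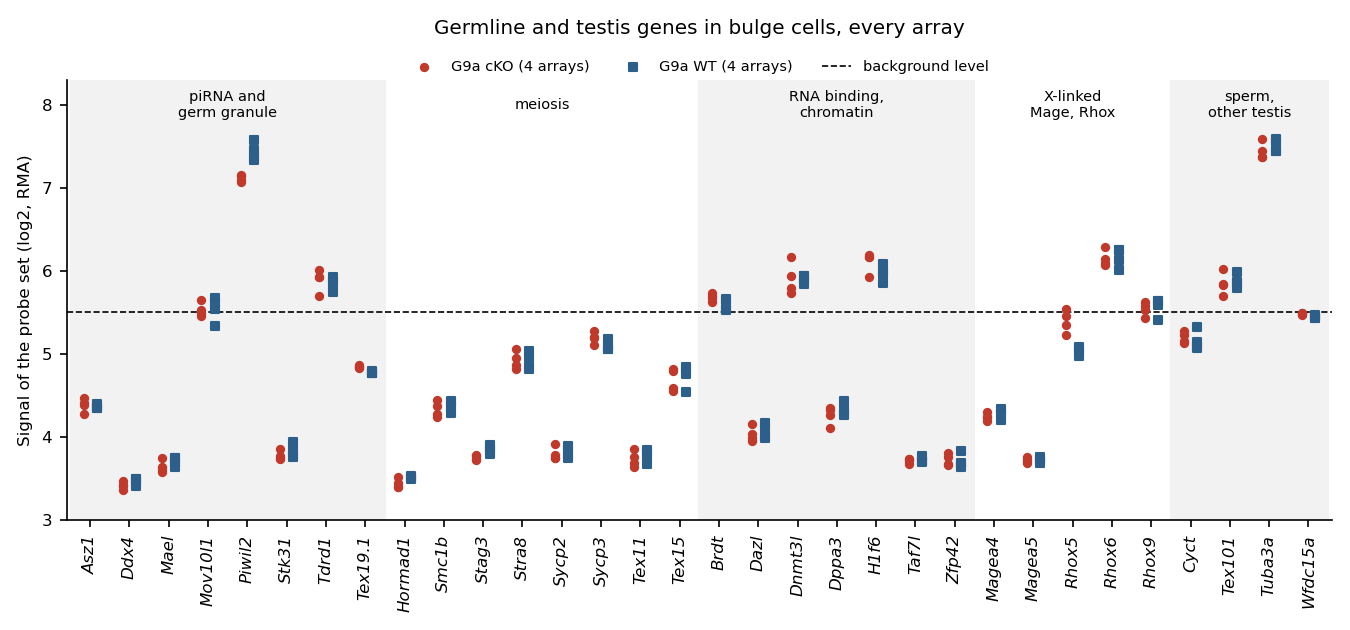
Signal of the probe set of each measured germline and testis gene (y axis, log2) on 4 G9a cKO arrays (circles) and 4 G9a WT arrays (squares), grouped by role; the dashed line is the background level of 5.50. The points of both genotypes lie on top of each other for most genes. Rhox5 and Tex19.1 are higher, and Piwil2 and Stag3 lower, in every cKO array, with smaller changes for Tex19.1 and Stag3.

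Against that background 2 members changed: Rhox5 rose and Piwil2 fell in cKO. Neither passed without cKO replicate 2, cKO replicate 4 or WT replicate 1, Rhox5 alone passed without cKO replicate 3, and Piwil2 alone passed without WT replicate 3. Of the 32 members 1 was called higher and 1 lower at an adjusted p under 0.05, where 2.76% of all genes were called, 1.92% higher and 0.836% lower. Rhox5 was 1 of 22 near background, where 1.55% of all genes were called, and Piwil2 1 of 10 above it, where 3.48% were. Over the 37 probe sets of the members these 2 alone passed, where 1.77% of all probe sets did. The cKO and WT values did not overlap for 4 members, Rhox5, Piwil2, Tex19.1 and Stag3, where 8.24% of all genes had no overlap. Without adjustment, 4 members had a p under 0.05, where 13.7% of all genes did. The median log2 change of the members was -0.02, with 12 above 0 and 20 below, and that of all genes was 0.0027. For the 30 members not called, the log2 changes ran from -0.10 to 0.14 and their 95% intervals lay between -0.23 and 0.31. The outermost limits were a rise of 1.24-fold and a fall of 1.17-fold as these probe sets report it. Each interval holds for 1 gene taken alone and not for all 30 at once. RMA compresses changes near background, so for the 21 of these genes that lay there, and for the change of Rhox5, the values hold for the reported signal and not for the transcript. The mean of these 30 members, set against each gene's mean over all arrays, ran from -0.03 to 0.04 in cKO and from -0.04 to 0.04 in WT, so the groups overlapped.

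**Figure D2:**
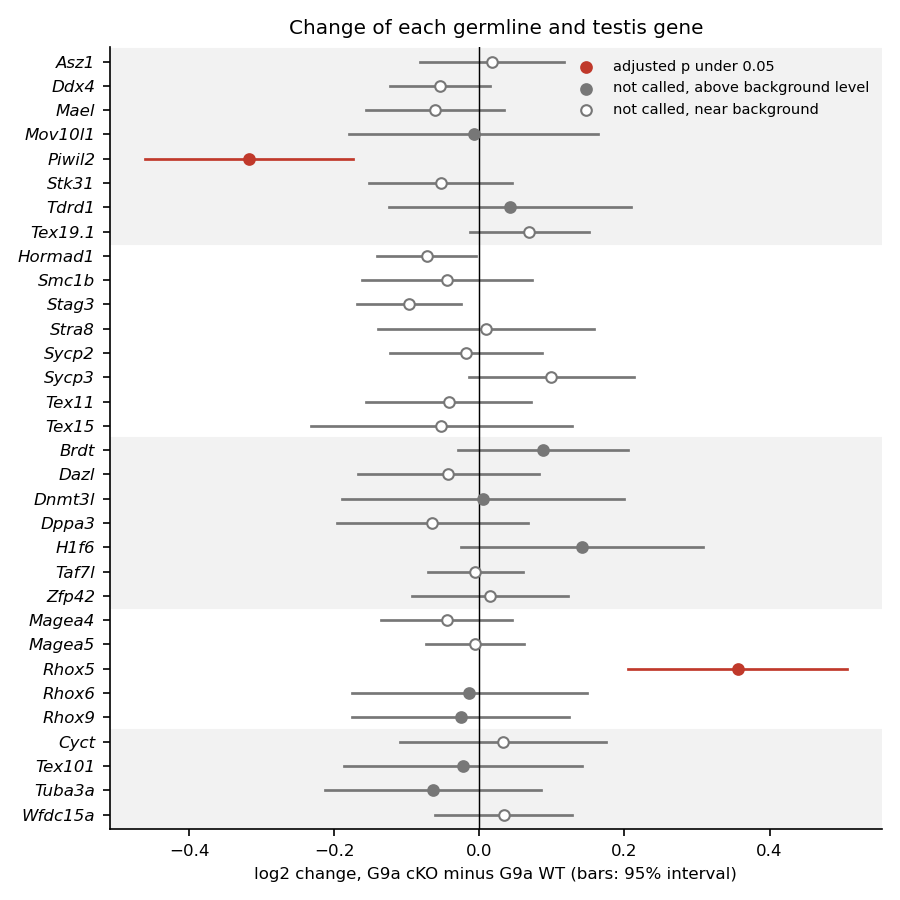
Log2 change of each member, G9a cKO minus G9a WT (points), with the 95% interval of the limma fit (bars), in the order of the roles. Rhox5 at 0.36 and Piwil2 at -0.32 stand away from the other 30 genes, which lie between -0.10 and 0.14.

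Promoters are shown for the 5 members with the lowest unadjusted p that are in the promoter table, because CpG dinucleotides are the sites of DNA methylation and E-boxes and E2F motifs are the letters that the MGA-MAX and E2F6 repressors are known to bind. Each is the 250 bases before the RefSeq start on GRCm38.p6, 5′ to 3′ on the strand of the gene, with CpG dinucleotides in capitals: Rhox5 at chrX:37754358-37754607, Stag3 at chr5:138280259-138280508, Hormad1 at chr3:95559427-95559676, Sycp3 at chr10:88459337-88459586 and H1f6 at chr13:23695561-23695810, all on the plus strand.
Rhox5: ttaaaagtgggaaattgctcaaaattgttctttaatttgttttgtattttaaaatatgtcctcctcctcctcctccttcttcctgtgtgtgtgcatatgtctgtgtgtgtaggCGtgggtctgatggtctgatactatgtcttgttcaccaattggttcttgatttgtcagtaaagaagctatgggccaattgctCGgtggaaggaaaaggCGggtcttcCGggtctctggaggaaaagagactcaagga
Stag3: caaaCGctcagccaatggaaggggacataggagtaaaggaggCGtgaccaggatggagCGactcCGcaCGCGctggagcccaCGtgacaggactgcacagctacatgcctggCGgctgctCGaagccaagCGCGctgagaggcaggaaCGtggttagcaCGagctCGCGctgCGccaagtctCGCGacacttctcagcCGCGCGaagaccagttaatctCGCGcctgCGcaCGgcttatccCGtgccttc
Hormad1: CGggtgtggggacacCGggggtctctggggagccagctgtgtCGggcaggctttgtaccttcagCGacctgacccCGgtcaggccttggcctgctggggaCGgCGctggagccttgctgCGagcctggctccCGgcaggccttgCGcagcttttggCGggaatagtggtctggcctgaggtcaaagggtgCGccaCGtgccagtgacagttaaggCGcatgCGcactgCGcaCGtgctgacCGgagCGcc
Sycp3: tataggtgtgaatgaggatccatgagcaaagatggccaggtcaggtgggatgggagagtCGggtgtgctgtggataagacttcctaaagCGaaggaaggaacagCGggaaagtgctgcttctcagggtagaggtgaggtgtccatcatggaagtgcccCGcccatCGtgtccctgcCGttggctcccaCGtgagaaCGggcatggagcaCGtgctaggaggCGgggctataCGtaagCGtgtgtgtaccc
H1f6: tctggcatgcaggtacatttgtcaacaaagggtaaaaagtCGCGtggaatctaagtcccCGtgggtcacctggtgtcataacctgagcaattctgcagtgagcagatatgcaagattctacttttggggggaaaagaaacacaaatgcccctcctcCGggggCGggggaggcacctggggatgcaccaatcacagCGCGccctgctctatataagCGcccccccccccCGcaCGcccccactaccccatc
The Rhox5 window held 4 CpG and neither motif. That of Stag3 held 26 CpG and an E-box, CACGTG, whose first base lies 170 bases before the start. Hormad1 had 19 CpG, E-boxes at 57 and 20 bases and an E2F core, GCGGGA on either strand, at 95 bases. The Sycp3 window had 12 CpG, E-boxes at 64 and 43 bases and an E2F core at 147 bases, and that of H1f6 had 10 CpG and neither motif.

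Over the whole list, 28 of the 34 members had a promoter in the table; Dppa3, Piwil2, Rhox6, Rhox9, Tex11 and Tex15 did not. The windows of members held a median of 13 CpG against 6 over 27018 genes, and 60.7% against 38.2% held at least 10. An E-box was found in 11 of 28 members (39.3%) and in 6.05% of all genes, and an E2F core in 8 (28.6%) and 16.9%. The motifs can overlap by 1 base at most, and both were in 4 members (14.3%) and in 1.47% of all genes. All 11 members with an E-box were among the 17 with at least 10 CpG (64.7%), where 9.49% of all genes with as many CpG had one. An E2F core was in 6 of these 17 (35.3%), where 37.2% of all genes with as many CpG had one. By role, the E-box was in 6 of 8 windows of piRNA and germ granule genes, 3 of 6 of meiosis genes, 2 of 6 of RNA binding and chromatin genes and none of the 8 windows of the X-linked Mage and Rhox genes and of the sperm and other testis genes. The Magea4 and Magea5 windows held 0 CpG. A match describes these letters and is no evidence of binding, and DNA methylation was not measured here.

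**Figure D3:**
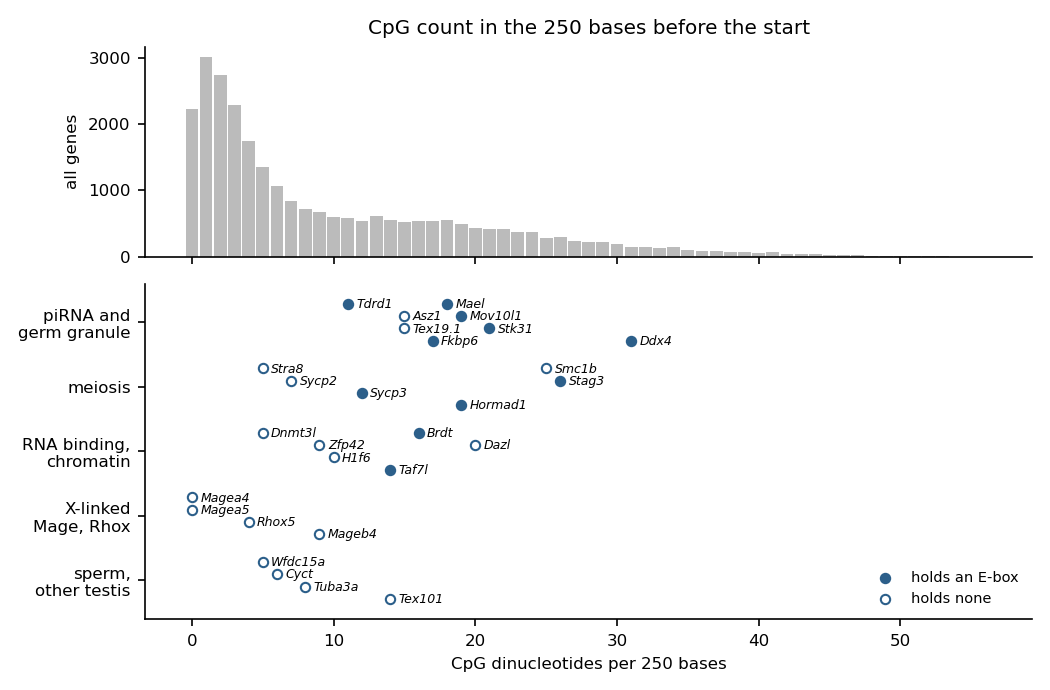
CpG dinucleotides in the 250 bases before the start, as a histogram over 27018 genes (top; y axis, number of genes) and for 28 members by role (bottom; filled points hold an E-box). The piRNA and germ granule genes have 11 to 31 CpG, and the X-linked Mage and Rhox genes 0 to 9.

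The piRNA and germ granule genes act in the pathway by which small RNAs bound to Piwi proteins silence retrotransposons in germ cells. Of 8 measured, 1 fell and none rose, and 5 lay near background. Of all genes, 0.836% were called lower, 1.92% higher, and 37.3% lay near background. Piwil2, which encodes the Piwi protein MILI that binds these small RNAs, read 7.15, 7.07, 7.10 and 7.16 in cKO and 7.58, 7.38, 7.34 and 7.46 in WT by its only probe set, 1449170_PM_at. Every cKO array was below every WT array. The fall was 1.25-fold, from 7.44 ± 0.11 in WT to 7.12 ± 0.04 in cKO (log2, mean ± SD, n = 4 each), with a log2 change of -0.32 (SE 0.06, 95% interval -0.46 to -0.17, limma adjusted p = 0.0281). By an exact permutation test, two-sided, p was 0.0286, and no smaller value is possible with 4 against 4 arrays. Piwil2 passed the threshold in 4 of the 8 fits that left out 1 array; its limma adjusted p was 0.109 without cKO replicate 2, 0.0878 without cKO replicate 3, 0.0667 without cKO replicate 4 and 0.0630 without WT replicate 1, while the log2 change stayed between -0.35 and -0.27.

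Tdrd1, a Tudor-domain scaffold that binds Piwi proteins, read 5.70, 5.93, 5.92 and 6.02 in cKO and 5.88, 5.84, 5.75 and 5.93 in WT. The groups overlapped (log2 change 0.04, 95% interval -0.12 to 0.21, limma adjusted p = 0.904). Mov10l1, the RNA helicase that feeds precursors into the pathway, read 5.65, 5.49, 5.54 and 5.46 in cKO and 5.34, 5.54, 5.68 and 5.61 in WT. These overlapped too, with an interval of -0.18 to 0.16 (limma adjusted p = 0.987). Tex19.1, a gene of germ cells and placenta that is needed to keep retrotransposons in check, lay near background at 4.83, 4.87, 4.85 and 4.84 in cKO and 4.77, 4.80, 4.77 and 4.77 in WT. Its groups did not overlap, and the log2 change was 0.07 (SE 0.04, limma adjusted p = 0.469; exact permutation p = 0.0286). Ddx4, the Vasa helicase that marks germ cells, Mael, a nuage protein, Asz1, a germ granule protein at mitochondria, and Stk31, a Tudor-domain kinase, all lay near background, with log2 changes of -0.05, -0.06, 0.02 and -0.05. The second probe sets of Asz1 and Stk31 did not pass either, at -0.02 and 0.0040.

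Meiosis genes build the chromosome axes and the recombination machinery of spermatocytes and oocytes. All 8 members of this role lay near background in both genotypes, between 3.40 and 5.28 over all arrays, against 37.3% of all genes. None of the 8 passed, where 2.76% of all genes did, and 1.55% of those near background. Stag3, a cohesin subunit specific to meiosis, read 3.78, 3.77, 3.73 and 3.74 in cKO and 3.84, 3.87, 3.90 and 3.80 in WT. The groups did not overlap, but the log2 change of -0.10 (SE 0.03, limma adjusted p = 0.191; exact permutation p = 0.0286) did not pass. Hormad1, a chromosome axis protein, had an unadjusted limma p of 0.0398 at a log2 change of -0.07 (adjusted p = 0.327), with overlap between the groups. Sycp3, a component of the synaptonemal complex, averaged 5.20 ± 0.07 over the cKO arrays against 5.10 ± 0.05 over the WT arrays (log2 with SD, n = 4 each; limma adjusted p = 0.453). The others were Sycp2, its partner in the complex, Stra8, the factor that starts meiosis in response to retinoic acid, Tex11, an X-linked crossover gene, Smc1b, a meiotic cohesin subunit, and Tex15, a gene of meiotic recombination. Their log2 changes lay between -0.05 and 0.01.

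The third role holds genes of RNA binding, chromatin and transcription. None of 7 measured passed, where 2.76% of all genes did, and Brdt, H1f6 and Dnmt3l lay above background. Brdt, the testis member of the BET bromodomain family, read 5.74, 5.70, 5.63 and 5.68 in cKO and 5.53, 5.65, 5.66 and 5.54 in WT. The groups overlapped (log2 change 0.09, limma adjusted p = 0.541), and its second probe set lay near 4.05 and 4.07. H1f6, the testis linker histone, had the highest log2 change of the genes not called, 0.14 (95% interval -0.03 to 0.31, limma adjusted p = 0.469). Its arrays read 6.17, 6.20, 6.17 and 5.94 in cKO and 6.00, 6.09, 5.86 and 5.97 in WT, so cKO replicate 4 lay inside the WT range. Dnmt3l, the catalytically inactive partner of the de novo DNA methyltransferases in germ cells, read 6.17, 5.79, 5.94 and 5.74 in cKO and 5.84, 5.94, 5.89 and 5.94 in WT. Both groups had the same mean to within 0.0048 (95% interval -0.19 to 0.20, limma adjusted p = 0.993). Affymetrix marks by a suffix the probe sets that can match more than 1 transcript. Such a suffix is carried by the sets used for Dnmt3l, Asz1 and Hormad1, by both sets of Tuba3a and of Stk31, and by the second set of Brdt. Dazl, a germ cell RNA-binding protein, Taf7l, a testis variant of a general transcription factor subunit, Dppa3, a maternal factor of oocyte and zygote, and Zfp42, the pluripotency marker REX1, lay near background with log2 changes from -0.06 to 0.01.

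The Mage and Rhox genes are X-linked families that are read in testis or placenta and, for human MAGE genes, also in tumours. Of the 5 measured, Rhox5 rose and none fell, where 1.92% of all genes were called higher and 0.836% lower. Rhox5, a homeobox gene of Sertoli cells, epididymis and placenta, read 5.23, 5.46, 5.35 and 5.54 in cKO and 4.97, 5.09, 5.07 and 5.03 in WT by its only probe set, 1423429_PM_at. Every cKO array was above every WT array. Its reported signal was 1.28-fold higher, at 5.40 ± 0.13 in cKO against 5.04 ± 0.05 in WT (log2, mean ± SD, n = 4 each), with a log2 change of 0.36 (SE 0.07, 95% interval 0.21 to 0.51, limma adjusted p = 0.0203; exact permutation p = 0.0286). Both means lay below the background level of 5.50, so this fold is that of a probe set near background. Both exceeded the lower level of 4.87, the 90th percentile of the receptor probe sets. Rhox5 passed in 4 of the 8 fits without 1 array. Its limma adjusted p was 0.0772 without cKO replicate 2, 0.0516 without cKO replicate 4, 0.0648 without WT replicate 1 and 0.0579 without WT replicate 3, and the log2 change stayed between 0.31 and 0.41.

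Other genes of the same Rhox cluster and of the Mage families did not pass. Rhox6, a homeobox gene of placenta and germ cells, read 6.10, 6.15, 6.08 and 6.29 in cKO and 6.02, 6.26, 6.25 and 6.13 in WT. The groups overlapped (log2 change -0.01, 95% interval -0.18 to 0.15, limma adjusted p = 0.974). Rhox9, its close relative, read 5.63, 5.43, 5.58 and 5.53 in cKO and 5.41, 5.64, 5.60 and 5.64 in WT, again with overlap (log2 change -0.03, 95% interval -0.18 to 0.12, limma adjusted p = 0.942). Probes of one Rhox copy may also pick up a near-identical one, so these values are uncertain. Magea4 and Magea5 lay near background, at 4.24 ± 0.04 and 3.73 ± 0.03 in cKO (log2, mean ± SD, n = 4) against 4.29 ± 0.06 and 3.73 ± 0.04 in WT (n = 4), and did not pass (limma adjusted p = 0.727 and 0.972).

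**Figure D4:**
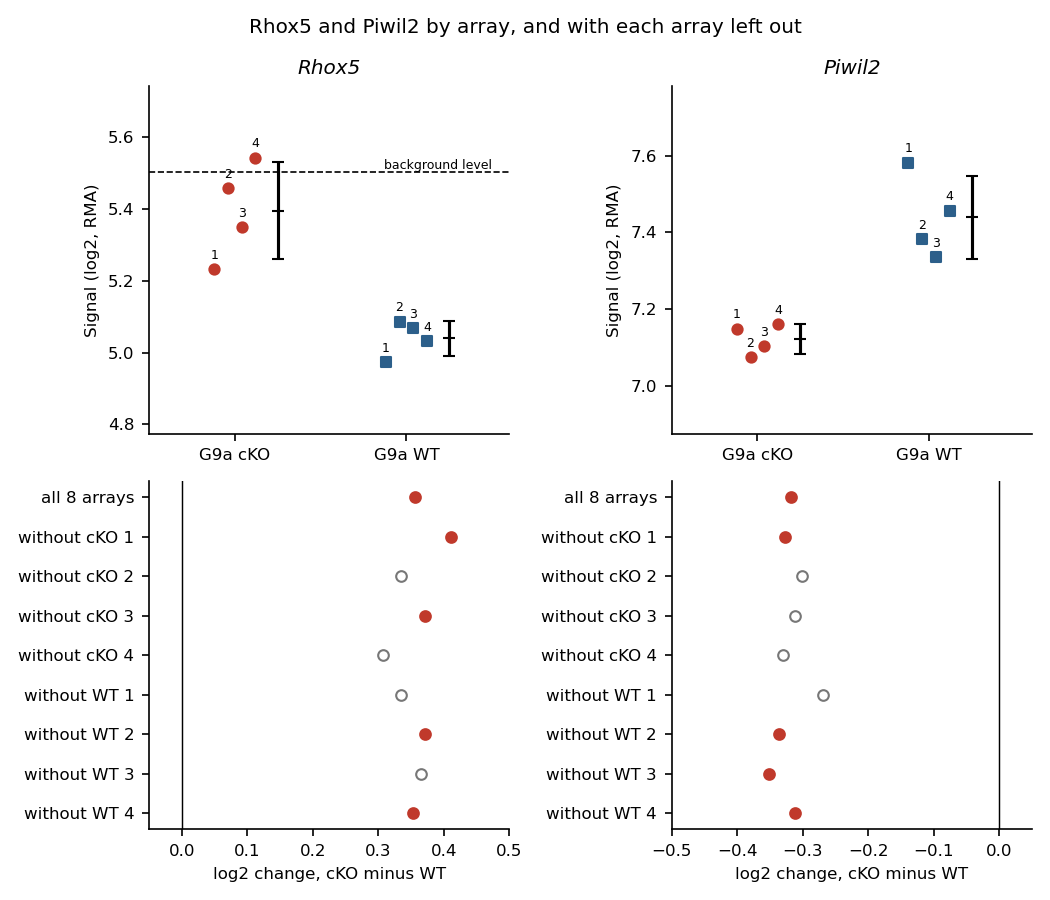
Top, signal of Rhox5 and Piwil2 on each array (log2; numbers are replicate numbers, black bars mean ± SD, n = 4); bottom, log2 change with all 8 arrays and with each left out (filled points pass an adjusted p of 0.05). The groups do not overlap, the change keeps its sign in each fit, and each gene passes in 4 of the 8 fits that leave out 1 array.

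Sperm and other testis genes gave no call among 4 measured, where 2.76% of all genes were called. Tuba3a, an alpha-tubulin gene of testis, read 7.59, 7.38, 7.44 and 7.38 in cKO and 7.44, 7.45, 7.59 and 7.55 in WT by a probe set that can also match other alpha-tubulin transcripts. The groups overlapped (log2 change -0.06, limma adjusted p = 0.781), and the second probe set of Tuba3a, which can also match more than 1 transcript, gave 0.02. Tex101, a surface protein of germ cells, read 6.02, 5.70, 5.84 and 5.85 in cKO and 5.80, 5.86, 5.99 and 5.85 in WT, with overlap (log2 change -0.02, limma adjusted p = 0.954). Wfdc15a, a gene of the WAP-domain family, and Cyct, the testis form of cytochrome c, lay below the background level, and both had log2 changes of 0.03 (limma adjusted p = 0.843 and 0.918).

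Further germline genes gave 1 call among 87 measured, where 2.76% of all genes were called, and 1.55% of those near background. In 5 other lists, of piRNA genes, meiosis genes, late spermatogenesis, X-linked testis genes, and pluripotency and oocyte genes, 87 of 117 genes were measured and 72 (82.8%) lay near background in both genotypes, against 37.3% of all genes. Zpbp, which encodes a sperm protein that binds the egg coat, rose and none fell, and the median log2 change was -0.0029. Zpbp read 4.57, 4.76, 4.67 and 4.79 in cKO and 4.11, 4.24, 4.31 and 4.22 in WT. All cKO arrays were above all WT arrays, by a log2 change of 0.48 (SE 0.06, limma adjusted p = 0.00211), with both groups below the background level. Zpbp passed in each of the 8 fits without 1 array (highest limma adjusted p = 0.00966). With the mean of all its probe sets the log2 change was smaller, 0.34 (limma adjusted p = 0.00314). In the list of 24 meiosis genes the lowest p was that of Mlh3, a mismatch repair gene that also acts in crossovers and outside the germline, at 7.72 ± 0.11 in cKO against 7.36 ± 0.21 in WT (log2 with SD, n = 4 each; limma adjusted p = 0.111). It passed with array weights (limma adjusted p = 0.0296) and without WT replicate 4 (limma adjusted p = 0.0193). In the other lists the lowest p belonged to the piRNA methyltransferase gene Henmt1 (log2 change 0.13, limma adjusted p = 0.389), the X-linked lymphocyte-regulated gene Xlr (-0.08, limma adjusted p = 0.539) and the egg coat gene Zp3 (0.10, limma adjusted p = 0.326). Of the 29 further X-linked testis genes 12 were measured, so the absence of a call in that list holds for these 12 only.

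Genes that are known to silence germline genes did not pass in either direction. Of 21 measured, among them the DNA methyltransferase genes, Uhrf1, Setdb1 and the subunits of the E2F6 and MGA complex, 10 had a log2 change above 0 and 11 below (median -0.05), and 2 had an unadjusted p under 0.05, where 13.7% of all genes did and 2.76% were called. The lowest p was that of the histone deacetylase gene Hdac2, at 10.07 ± 0.07 in cKO against 9.94 ± 0.07 in WT (log2 with SD, n = 4 each, limma adjusted p = 0.278). The other was Dnmt3b, which lay near background and was lower in cKO (log2 change -0.16, limma adjusted p = 0.326). Only for Trim28 did the groups not overlap, where 8.24% of all genes had no overlap. It was lower in every cKO array (log2 change -0.05, limma adjusted p = 0.583).

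**Figure D5:**
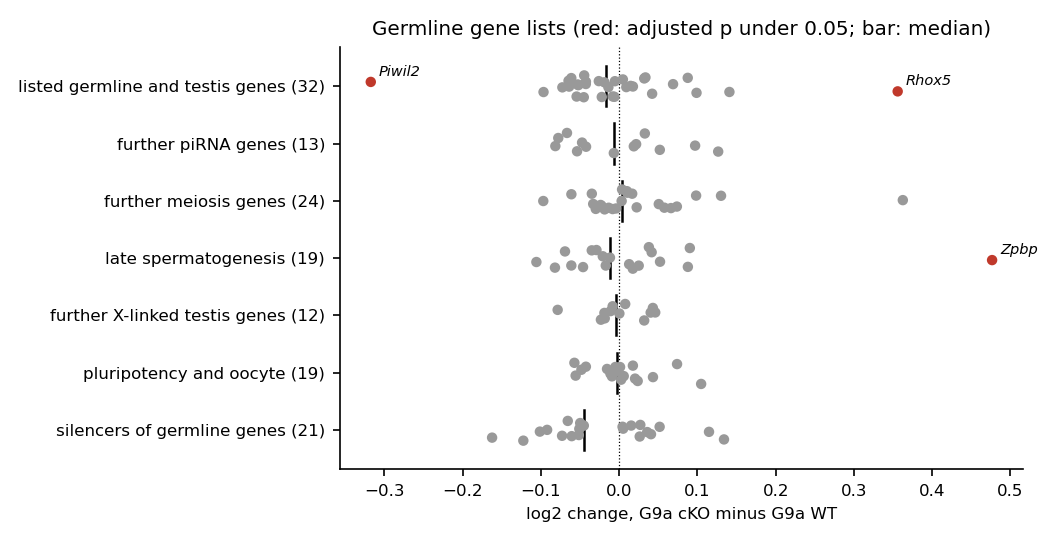
Log2 change, G9a cKO minus G9a WT, of each measured gene (points) in the germline and testis list and in 6 further lists, with the number measured in brackets; black bars are medians and red points pass an adjusted p of 0.05. The medians lie between -0.05 and 0.0034, and Rhox5, Piwil2 and Zpbp are the red points.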

How the data were processed

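Expression was measured on 8 Affymetrix arrays, 4 G9a cKO and 4 G9a WT. Total RNA (25 ng) was amplified over 17 cycles, per the labels' protocols. The deposited values are on the log2 scale, 1 for each probe set, and the submitters' processing notes name RMA; no version is given in the sources used here. They ran from 3.09 to 13.1, with array medians of 5.87 to 5.95, and 0 columns belonged to other samples. The number of arrays limits the precision.

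Of 45141 probe sets, 28898 had 1 gene symbol in the platform annotation, 551 several and 15692 none here. Each gene was read from its brightest probe set by the mean of the 8 arrays, which gave 17097 genes; 5 members had more than 1 probe set. Genotypes were compared with limma 3.58.1 in R 4.3.3 (eBayes with trend), two-sided, with Benjamini-Hochberg adjustment over all genes and a threshold of 0.05. Single values used exact permutation tests. The fit was tested on simulated data.

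A member was near background in a genotype where its mean was at or below the 95th percentile of 83 olfactory and vomeronasal receptor probe sets. Values by array are given for members past the threshold, without overlap, or above background. Hormad1, Sycp3 and the near-background members named by their changes serve as examples of their roles. Promoters come from RefSeq (GRCm38.p6). Where a gene has several starts the first listed was used, and the minimum of 10 CpG was chosen after the data were seen. The members and lists were chosen with earlier results of these data known. Python 3.11.15, pandas 2.3.3 and matplotlib 3.10.9 were also used.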

Additional observations from a re-analysis of the deposited data

Results flagged for a closer look

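In 2 of 66 groups of 4 arrays (3.03%), for the 32 members and the Ehmt2 probe set that fell, 1 array lay far from the other 3 by Dixon's criterion, which chance meets in about 1 in 20 groups. H1f6 read 5.94 in cKO replicate 4, where the other cKO arrays read 6.17 to 6.20. Without that array its log2 change was 0.20 in place of 0.14 and did not pass (limma adjusted p = 0.243). Tex19.1 read 4.80 in WT replicate 2, where the other WT arrays lay at 4.77, a gap that is small on the scale of the array and near background.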

How the results depend on the processing

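Of 18 alternatives for the count of members past the threshold, 10 gave 2, the count reported. It was 1, Piwil2, when the lowest 40% of probe sets were left out, since 11 members then had a probe set left and Rhox5 had none. It was 0 at an adjusted p of 0.01. It ranged from 0 to 2 over the 8 fits without 1 array, with 0 without cKO replicate 2, cKO replicate 4 or WT replicate 1, and 1 without cKO replicate 3 (Rhox5) or WT replicate 3 (Piwil2). With the replicate number as a block it was 0 (limma adjusted p = 0.0507 for Rhox5 and 0.0880 for Piwil2), and all genes gave 268 calls in place of 472. Arrays with the same number share only that number: their deviations correlated by -0.53 to 0.03 over genes, so no pairing was assumed. Over all alternatives the log2 change was 0.31 to 0.41 for Rhox5 and -0.35 to -0.27 for Piwil2. Array weights gave 732 calls over all genes, leaving out WT replicate 4 gave 796, and leaving out cKO replicate 2, cKO replicate 4, WT replicate 1 or WT replicate 3 gave 258, 296, 304 and 262. The 11 members described by array and not called passed in none of 174 alternative values (lowest limma adjusted p = 0.0832, Stag3); 15 of these values had the other sign, in 5 members with log2 changes near 0. The number near background ran from 17 to 23 over all alternatives and was 22 in each fit without 1 array. The fall of Ehmt2 kept its call in each alternative run for it.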
